A study of Bos taurus with 12 samples.

Results

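The oxytocin receptor gene, OXTR, was followed across endometrial biopsies of grazing dairy cows (Bos taurus) taken in relation to progesterone on day 4 of the estrous cycle. It is 1 of 13930 gene symbols in the count table and 1 of the 10959 with enough reads to be tested. It was picked from its own levels in CPM (counts scaled to library size) over the 4 progesterone classes, so those levels are described here without a test. The series asked how progesterone early in diestrus relates to endometrial gene expression. Polyadenylated RNA of 12 biopsies was sequenced, 3 for each class. The class called very low (ANE in the sample titles) lay below 0.25 ng/ml progesterone, the class called high (HPP4) above 2.5 ng/ml, and the class called very high (SO) above 20 ng/ml. The class called low (LPP4) lay below a bound of 1.4 whose unit is written as mg/dl, unlike the ng/ml of the other classes. The titles' abbreviations are not explained in the sources used here, nor is any treatment, age or breed. The very low and very high classes may thus differ from the other 2 in more than progesterone, which cannot be told apart from progesterone in any class difference or slope below. The labels do not tie each replicate to a cow of its own. P-values below therefore measure the spread between these samples, which may be technical.

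The oxytocin receptor is a membrane receptor that couples mainly to Gq proteins. Bound by oxytocin, it activates phospholipase C and releases calcium from internal stores. In the ruminant uterus it is known from the luminal epithelium of the endometrium and from the muscle of the myometrium. At the end of an infertile cycle, oxytocin acting on endometrial receptors drives the pulses of prostaglandin F2α that end the life of the corpus luteum. Progesterone is known to hold the receptor down for most of the luteal phase, and estrogen acting through estrogen receptor alpha is linked to its return.

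The libraries held 3772564 to 8379489 counted reads, and very low replicate 2 was the smallest. All 12 epithelial markers and all 9 stromal markers found in the table were detected in every class. The smooth muscle markers, 13 of 14 in the table, separated the libraries: their mean log2 CPM was 9.41 to 10.7 in the 6 libraries of the high and very high classes, 5.02 to 6.26 in the 3 low libraries, 4.99 and 6.42 in very low replicates 2 and 3, and 11.8 in very low replicate 1. That last library also had the lowest epithelial score, 3.84 against 6.59 to 8.88 in the other 11. Very low replicate 2 had the highest neutrophil score, 9.83 against 3.61 to 7.51 elsewhere, over the 5 of 7 listed markers in the table.

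OXTR was highest in the class labelled very low and lowest in that labelled very high. The very low libraries had 56.2, 209.3 and 167.3 CPM in replicates 1, 2 and 3, from 318, 811 and 1287 reads. The low libraries had 6.85, 11.1 and 21.7 CPM, the high libraries 37.8, 8.54 and 8.73 CPM. In the very high libraries it stood at 2.52, 4.49 and 6.73 CPM. Every very low library therefore lay above every library of the other 3 classes. Classes that did not overlap, by a gap of any width and with the very low class higher, were found for 4.63% of all tested genes with the low class, 9.63% with the high class and 12.2% with the very high class. The very low class carried 80.0% of the CPM summed over the 12 libraries. The mean levels with their SD (n = 3 in each class) were 144.3 ± 79.1 CPM at very low, 13.2 ± 7.65 CPM at low, 18.4 ± 16.9 CPM at high and 4.58 ± 2.11 CPM at very high progesterone.

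**Figure D1:**
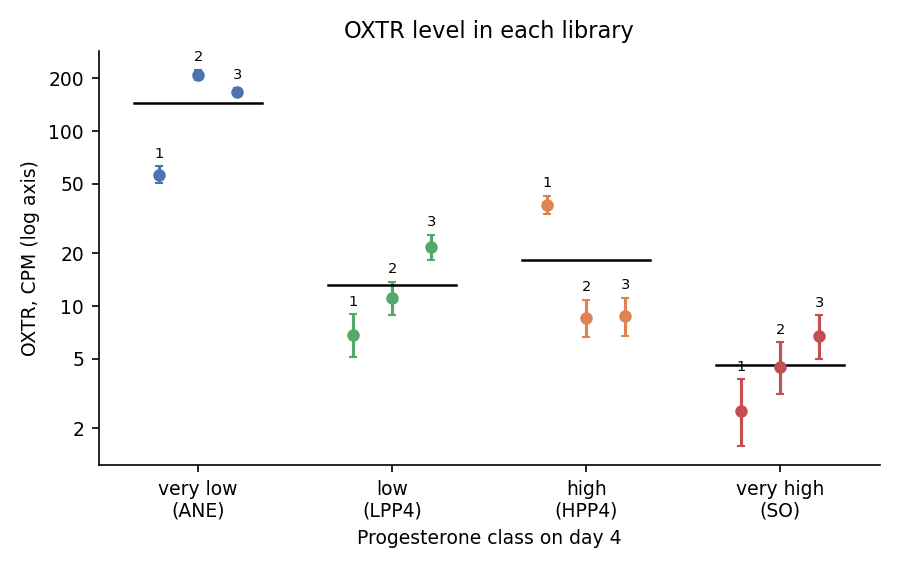
OXTR in CPM on a log axis for each of the 12 libraries, with its replicate number, a bar for the exact 95% Poisson interval of its read count, and a black line at the class mean. The 3 very low libraries, between 56.2 and 209.3 CPM, lie above all others, and the very high libraries lie at 6.73 CPM or less.

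The spread within a class exceeded counting error. The exact 95% Poisson intervals, which cover counting error only, ran from 50.2 to 62.7 CPM for very low replicate 1 and from 195.2 to 224.3 CPM for very low replicate 2. Within a class the highest library exceeded the lowest 3.72-fold in the very low, 3.17-fold in the low, 4.43-fold in the high and 2.67-fold in the very high class. High replicate 1 stood apart from its class, at 37.8 CPM with an interval of 33.6 to 42.5, while the other 2 had intervals within 6.62 and 11.1 CPM. The order of the 2 middle classes rested on this library: without it, the high class no longer exceeded the low class.

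The fitted differences put numbers on this order. OXTR was 31.5-fold lower in the very high than in the very low class (log2 fold change -4.98, standard error, SE, 0.81), and 44 of the 10959 tested genes had a more negative value. In the low class it was 10.9-fold lower than in the very low class (log2 -3.45, SE 0.74), with 57 genes more negative, and in the high class 7.85-fold lower than in the very low class (log2 -2.97, SE 0.73). The largest part of the distance thus lay between the very low class and the class next to it.

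Among the 3 upper classes the steps were smaller. The high class lay above the low class by 0.47 on the log2 scale with an SE of 0.69, and the libraries of both overlapped. The very high class was 4.02-fold lower than the high class (log2 -2.01, SE 0.73), and its libraries did not overlap those of the high class, which, in the lower direction, held for 3.89% of all tested genes. The gap was 6.73 CPM in very high replicate 3 against 8.54 CPM in high replicate 2, and the counting intervals of these libraries, 5.01 to 8.85 and 6.62 to 10.9 CPM, overlapped. The very high class was 2.89-fold lower than the low class (log2 -1.53, SE 0.72). These classes did not overlap either, as for 11.1% of tested genes in the lower direction, but the gap was 6.73 CPM in very high replicate 3 against 6.85 CPM in low replicate 1, inside the counting intervals of both libraries. Leaving out high replicate 1 moved the log2 difference of the very high from the high class to -0.91 and that of the high from the low class to -0.60.

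**Figure D2:**
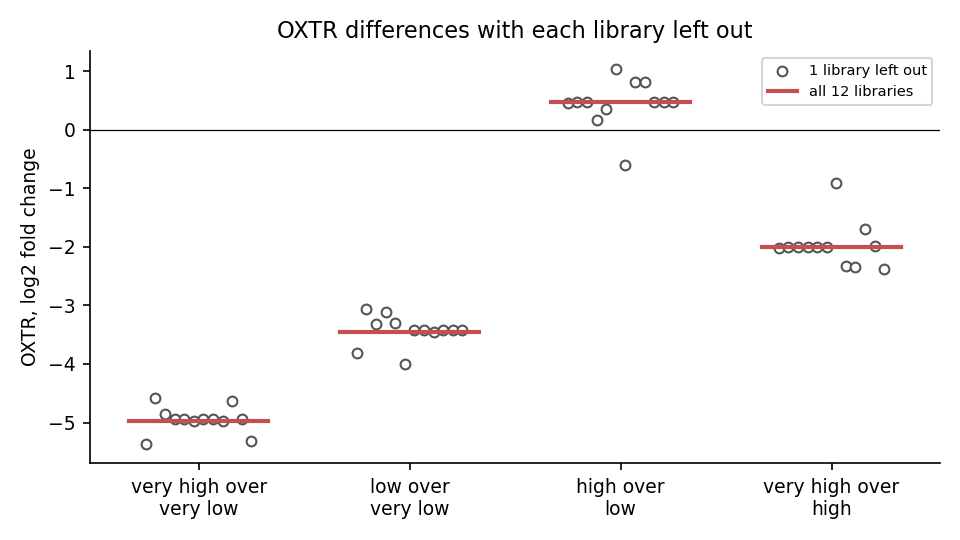
OXTR log2 fold change for 4 pairs of classes, with a red line for the fit to all 12 libraries and an open circle for each fit with 1 library left out. The differences from the very low class lie between -5.37 and -3.06 in these fits, and leaving out 1 library could not turn their sign. High over low turns to -0.60 and very high over high shrinks to -0.91 without high replicate 1.

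The cell types in the biopsies differed between libraries, and in bulk RNA fewer cells of a type and less RNA per cell cannot be told apart. Within the very low class OXTR was lowest in replicate 1, the library with the highest smooth muscle score (11.8) and the lowest epithelial score (3.84), and that library still lay above all libraries of the other classes. The 6 high and very high libraries combined smooth muscle scores of 9.41 to 10.7 with OXTR at 37.8 CPM or less. The 3 low libraries had epithelial scores of 7.02 to 8.08, smooth muscle scores of 5.02 to 6.26 and OXTR at 21.7 CPM or less. Very low replicates 2 and 3 had 8.88 and 7.63 for epithelium, 4.99 and 6.42 for smooth muscle, and 209.3 and 167.3 CPM of OXTR. Their neutrophil scores were 9.83 and 4.54, against 6.49 to 7.51 in the low libraries. The part of cell make-up in this OXTR difference was not tested.

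OXTR was also set against the epithelial score of the same library. The log2 CPM of OXTR minus that score was 1.98, -1.16 and -0.24 in the very low libraries, -4.79 to -2.56 in the low, -3.75 to -2.05 in the high and -5.42 to -3.78 in the very high libraries. On this scale the very low libraries again lay above all others, but the very high and the low libraries overlapped, and very low replicate 1 was the highest of its class instead of the lowest. With the epithelial score as a covariate the log2 difference of the very high from the very low class was -4.78, and with the smooth muscle score it was -4.20. The corresponding values for the low against the very low class were -3.48 and -3.73, those for the high against the low class 0.57 and 1.498, and those for the very high against the high class -1.87 and -1.97. The leukocyte score was 4.57 to 6.12 in the very low, 4.48 to 5.88 in the low, 3.14 to 4.38 in the high and 3.65 to 3.74 in the very high class. Its Pearson correlation with OXTR log2 CPM over the 12 libraries was 0.60, against 0.13 for the epithelial and -0.33 for the smooth muscle score. Spearman correlations were 0.62 for the leukocyte, 0.41 for the epithelial and -0.23 for the smooth muscle score. In deviations from the class means the Pearson values were 0.67, 0.50 and -0.48 in the same order. The leukocyte score was not used alone as a covariate, and its part in the OXTR difference was not tested.

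**Figure D3:**
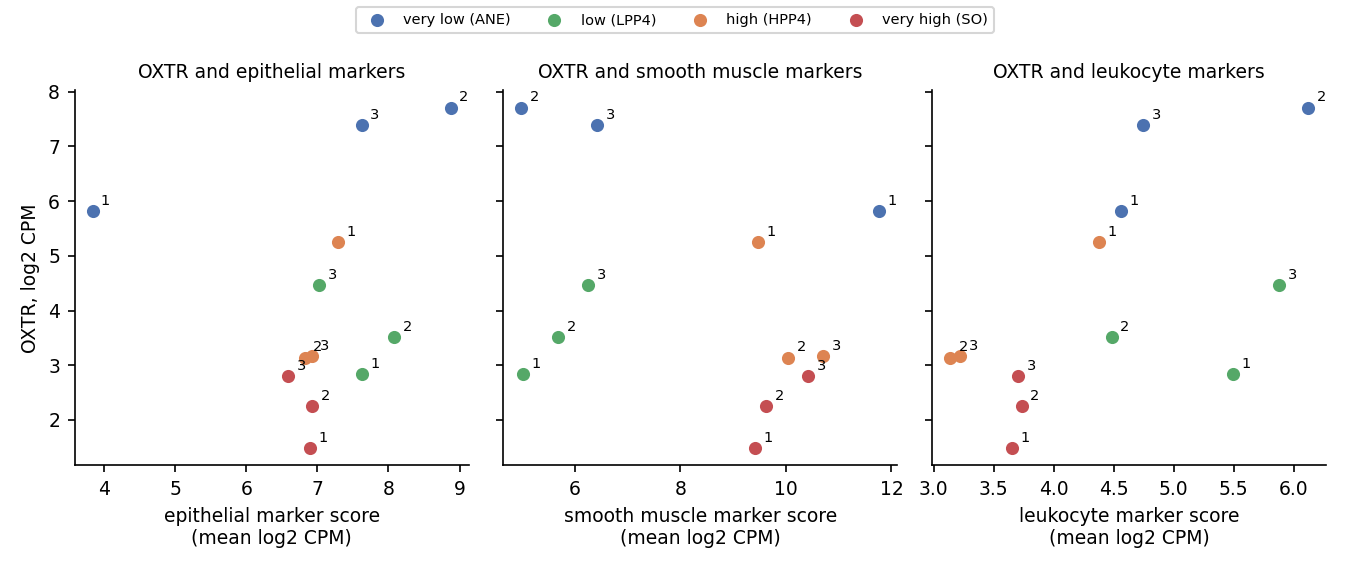
OXTR log2 CPM (vertical axis) against the mean log2 CPM of epithelial, smooth muscle and leukocyte markers (horizontal axes), 1 point per library with its replicate number, coloured by class. Very low replicate 1 sits at the low end of the epithelial axis (3.84) and at the high end of the smooth muscle axis (11.8), yet above all libraries of the other classes in OXTR.

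The OXTR locus overlaps other genes. In the ARS-UCD2.0 annotation, CAV3, which encodes the muscle caveolin, lies wholly within the span of OXTR on chromosome 22, and SSUH2 overlaps it at an end. CAV3 had 20, 3 and 6 reads in the very low libraries and 0 to 7 reads in the other 9, too few to be tested and at most 8.05% of the OXTR reads of the same library. SSUH2 was not analysed here. Since the strand setting of the counting is not given in the sources used here, a read shared by overlapping genes could not be assigned to 1 of them. The tested neighbours differed from each other. LMCD1, which encodes a LIM domain protein, averaged 24.1 ± 15.2 CPM at very low, 18.5 ± 7.82 CPM at low, 24.6 ± 6.49 CPM at high and 22.2 ± 7.30 CPM at very high progesterone (SD, n = 3 in each class). RAD18, a DNA repair gene, averaged 41.2 ± 14.2 CPM at very low, 38.2 ± 24.9 CPM at low, 20.2 ± 3.08 CPM at high and 16.3 ± 1.66 CPM at very high progesterone (SD, n = 3 in each class).

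Oxytocin itself and the receptors closest to OXTR were hardly transcribed at this depth. OXT, which encodes oxytocin, had 0, 1 and 17 reads in the very low libraries, 2, 12 and 5 in the low, 0 in each high library and 1, 0 and 3 in the very high libraries. The vasopressin receptor genes AVPR1A and AVPR2, whose products belong to the same receptor family, had at most 2 and at most 10 reads in any library, and AVPR1B had 0 in all 12. A count of 0 allows 0.343 to 0.774 CPM, depending on the library. None of these genes could be tested, and LNPEP, which encodes the oxytocin-cleaving aminopeptidase, was not analysed here. OXTR, with 22 reads in its lowest library, was the 1 gene of this receptor family that was tested.

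The partners of OXTR were grouped as oxytocin supply, Gq and calcium signalling, receptor silencing, the MAP kinase arm and prostaglandin output, 74 genes of which 61 were tested. Between the very high and the very low class 2 of the 61 rose and none fell (edgeR quasi-likelihood test, Benjamini-Hochberg adjusted p under 0.05), against 1.11% of all tested genes that rose and 0.411% that fell. Their median log2 fold change was -0.44, against -0.12 over all tested genes. Both risen genes belong to prostaglandin output, and 43 of the 61 had a negative value. Single libraries decided that count of 2. Dropping very low replicate 1 gave 7, and dropping low replicate 2 gave 1. Dropping very low replicate 2, any of the 3 high libraries or any of the 3 very high libraries gave 0.

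Those genes were AKR1B1, the reductase that makes prostaglandin F2α in bovine endometrium, and HPGD, the dehydrogenase that inactivates prostaglandins. AKR1B1 had 547.6, 702.4 and 505.5 CPM in the very high libraries, against 100.9, 58.3 and 158.8 CPM in the very low libraries. Its level was already 763.6, 486.4 and 246.6 CPM in the low class and 576.2, 630.1 and 346.1 CPM in the high class, so the classes other than the very low one overlapped. At the step from very low to low it thus ran opposite to OXTR, without being called (log2 2.23, SE 0.47, edgeR adjusted p = 0.275). The log2 fold change of very high over very low was 2.46 (SE 0.47, edgeR adjusted p = 0.0374).

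HPGD had 432.8, 497.2 and 357.6 CPM in the very high libraries, against 6.72, 19.4 and 69.8 CPM in the very low libraries. It averaged 424.5 ± 179 CPM in the low and 415.8 ± 203 CPM in the high class (SD, n = 3 each), levels that overlapped those of the very high class. The log2 fold change of very high over very low was 3.74 (SE 0.76, edgeR adjusted p = 0.0420). For neither gene did the slope over the 4 classes pass.

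PTGS2, the inducible cyclooxygenase that starts prostaglandin synthesis, did not follow OXTR. It had 54.2, 31.3 and 22.03 CPM in the very high libraries, against 2.30, 450.2 and 20.4 CPM in the very low libraries, and the classes overlapped (log2 -2.13, SE 1.40, edgeR adjusted p = 0.375). Its highest value lay in the library with the highest neutrophil score, and without that library the log2 fold change was 1.67. PTGFR, the receptor for prostaglandin F2α, had too few reads to be tested, 76 in very low replicate 1 and 1 to 19 in the other 11. PTGER3, a receptor for prostaglandin E2, had 249.0 CPM in very low replicate 1 and at most 39.3 CPM in the other 11 libraries (edgeR adjusted p = 0.338 for very high against very low). Both receptors peaked in the library with the highest smooth muscle score, where OXTR was the lowest of its class.

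**Figure D4:**
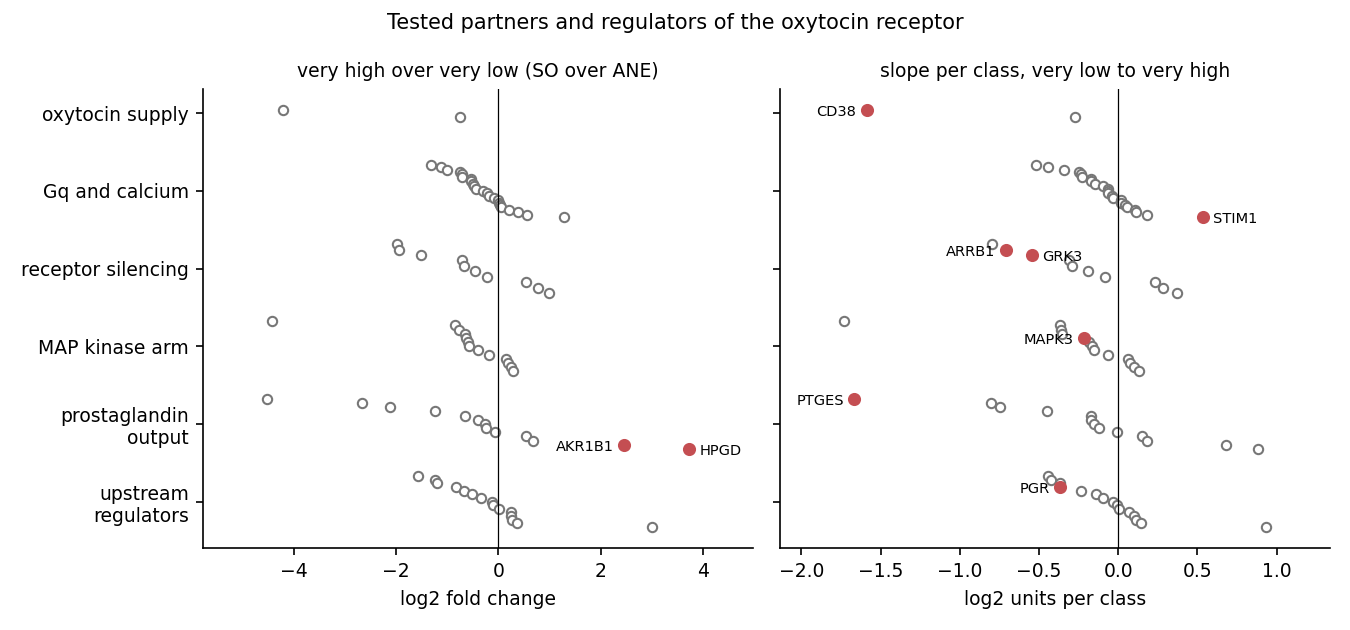
Log2 fold change of very high over very low (left) and log2 slope per class from very low to very high (right) for every tested partner and upstream regulator of OXTR, by group, 1 circle per gene. Red filled circles with names passed an edgeR adjusted p of 0.05, namely AKR1B1 and HPGD on the left and 7 genes on the right.

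Over the ordered classes, ranked 1 to 4, 1 of the 61 partners rose and 5 fell (edgeR quasi-likelihood test, adjusted p under 0.05), against 3.02% of all tested genes that rose and 4.46% that fell. The partners' median slope was -0.15 log2 units per class, against -0.04 over all tested genes. PTGES, which makes prostaglandin E2, fell by 1.67 log2 units per class (SE 0.33, edgeR adjusted p = 0.0228), and its slope was -1.44 without very low replicate 2 (edgeR adjusted p = 0.0717). It had 10.1, 133.2 and 37.4 CPM in the very low libraries, 4.48, 45.8 and 50.1 CPM in the low, 5.37, 2.81 and 4.23 CPM in the high and 3.43, 1.25 and 3.03 CPM in the very high libraries. In the class means its largest drop stood between the low and the high class, whereas that of OXTR stood between the very low and the low class. The PTGES step was not called (log2 -3.01, SE 0.99, edgeR adjusted p = 0.364). Low replicate 1, at 4.48 CPM, lay within the high class, and very low replicate 1 had only 10.1 CPM.

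CD38, an enzyme that makes the calcium-mobilizing messenger cyclic ADP-ribose and is needed for oxytocin release in the mouse brain, fell by 1.59 log2 units per class (SE 0.39, edgeR adjusted p = 0.0372). It had 0.884, 31.2 and 1.17 CPM in the very low libraries, 5.40, 5.89 and 5.21 CPM in the low, and 0.915 CPM or less in the high and very high libraries. Its highest value lay in very low replicate 2, without which the CD38 slope was -1.04 (edgeR adjusted p = 0.179). CD38 is also carried by leukocytes, and very low replicate 2 had the highest leukocyte score (6.12). Low replicate 2, with 5.89 CPM of CD38, had a leukocyte score of 4.48. Very low replicates 1 and 3, with 0.884 and 1.17 CPM, had scores of 4.57 and 4.75. The part of leukocytes in the CD38 slope was not tested. PAM, which amidates peptides such as oxytocin, had 162.5 ± 15.8 CPM in very high and 273.9 ± 104 CPM in very low libraries (SD, n = 3 each) and was not called (log2 -0.75, SE 0.29, edgeR adjusted p = 0.155).

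Receptor silencing had 10 tested genes, and 2 fell over the classes, a small list beside the 4.46% of all tested genes that fell. ARRB1, beta-arrestin 1, which uncouples and internalizes phosphorylated receptors, fell by 0.71 log2 units per class (SE 0.18, edgeR adjusted p = 0.0414). Its level was 26.3, 184.1 and 35.7 CPM in the very low libraries, 31.0 to 57.5 CPM in the low, 15.8 to 21.7 CPM in the high and 19.5 to 22.4 CPM in very high libraries. GRK3, a kinase that marks active receptors for arrestin, fell by 0.55 log2 units per class (SE 0.15, edgeR adjusted p = 0.0498), a call at the threshold. Very low replicate 2, which was also the highest in OXTR, held the highest value of both genes. Without it the slopes were -0.34 for ARRB1 (edgeR adjusted p = 0.147) and -0.36 for GRK3 (edgeR adjusted p = 0.15).

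The core of Gq signalling was not called. Of 23 tested Gq and calcium genes, 1 rose over the classes, near the 3.02% of all tested genes that rose. It was STIM1, the calcium sensor of the endoplasmic reticulum that opens store-operated entry (0.53 log2 units per class, SE 0.15, edgeR adjusted p = 0.0478). STIM1 had 15.1 to 33.8 CPM in the very low, 15.2 to 24.2 CPM in the low, 48.4 to 70.5 CPM in the high and 37.3 to 96.8 CPM in the very high libraries, and smooth muscle scores were high in the same 2 upper classes. Very low replicate 1, with the highest smooth muscle score of all, had 27.0 CPM. In a fit adjusted for smooth muscle and epithelial scores, added once the data had been seen, the STIM1 slope was 0.12 (edgeR adjusted p = 0.684). The part of muscle content in the STIM1 slope was not tested. GNAQ, the Gq alpha subunit to which OXTR couples, had 18.5 ± 7.62 CPM in the very high and 21.7 ± 14.8 CPM in the very low class (SD, n = 3 for both), and it was not called (log2 -0.22, SE 0.73, edgeR adjusted p = 0.880). Among the 13 tested MAP kinase genes 1 fell, against 4.46% of all tested genes. It was MAPK3, which encodes the kinase ERK1, by 0.22 log2 units per class (SE 0.05, edgeR adjusted p = 0.0366), at 95.1 to 128.5 CPM in the very high and 170.5 to 192.8 CPM in the very low libraries.

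The trend count of 6 also rested on single libraries. Dropping very low replicate 2, very high replicate 2 or very high replicate 3 gave 0, and dropping very high replicate 1 or any of the 3 high libraries gave 1. Dropping low replicate 2 gave 3. In an edgeR fit that adjusted for the smooth muscle and epithelial scores, added once the data had been seen, 0 of the 61 passed for the trend and 0 for very high against very low, with 11 and 7 at an unadjusted p under 0.05. The leukocyte score, highest in the very low and low classes, was not adjusted for, and its part in these slopes was not tested.

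No partner passed in edgeR's test between neighbouring classes, where no gene at all passed (0% of 10959 tested genes in each of the 3 comparisons). For the low against the very low class, the step at which OXTR differed most, 10 of the 61 partners had an unadjusted p under 0.05, DESeq2 called 3 (2.8% of all genes it tested) and limma-voom 0. For the high against the low class 11 had an unadjusted p under 0.05, DESeq2 called 3 (2.22% of all genes it tested) and limma-voom 0. For the very high against the high class the numbers were 0, 0 and 0. A p that misses the threshold does not show that levels were alike.

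Steroid receptors, their cofactors and other transcription factors that may act upstream of OXTR were followed as a list of 21, of which 15 were tested. None passed in edgeR between the very high and the very low class, where 4 had an unadjusted p under 0.05, DESeq2 called 2 (13.9% of all genes it tested) and limma-voom 0. Over the ordered classes 1 of the 15, PGR, fell, near the 4.46% of all tested genes that fell. PGR, the progesterone receptor, had 20.0, 25.1 and 27.6 CPM in the very high libraries, against 62.2, 34.1 and 70.3 CPM in the very low libraries. Very low replicate 2, the highest in OXTR, was the lowest of its class in PGR, so the order within the class differed between the genes. PGR fell by 0.37 log2 units per class (SE 0.09, edgeR adjusted p = 0.0341). That call was lost in 9 of 19 alternative settings, in which the slope ran from -0.48 to -0.29.

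The estrogen receptors went in opposite directions in their means, without passing. ESR1, estrogen receptor alpha, had 21.5, 29.8 and 49.2 CPM in the very high libraries, against 106.2, 151.0 and 40.7 CPM in the very low libraries, and the classes overlapped (log2 -1.57, SE 0.59, edgeR adjusted p = 0.149). Very low replicate 3 combined the lowest ESR1 of its class with 167.3 CPM of OXTR. ESR2, estrogen receptor beta, was looked up after its value was seen, and it had 22.7, 30.4 and 40.8 CPM in the very high libraries, against 0, 3.098 and 8.19 CPM in the very low libraries (log2 3.01, SE 0.997, edgeR adjusted p = 0.11). IRF2, an interferon regulatory factor, differed little, with 103.4 ± 11.9 CPM in the very high and 87.6 ± 28.1 CPM in the very low class (SD, n = 3 each; log2 0.24, SE 0.25, edgeR adjusted p = 0.584), and was likewise looked up after its value was seen.

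Across the 12 libraries the likeness of other genes to OXTR was measured as the Pearson correlation of log2 CPM, among 10232 tested genes that averaged a log2 CPM of 1 or more. It is a description without a p, since the genes were picked by it and the libraries share their class, scaling and tissue make-up. For scale, the middle 90% of these genes lay between -0.70 and 0.64. PGR had 0.71 (Spearman 0.71) and ranked 251 from the top, and ESR1 had 0.56 (Spearman 0.55) and ranked 1033. AKR1B1 had -0.84 (Spearman -0.76) and ranked 50 from the bottom. When deviations from the class means were correlated instead, these values were -0.19 for PGR, -0.01 for ESR1 and -0.28 for AKR1B1, so their likeness to OXTR lay between classes and not between replicates of a class.

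SEMA6A, a transmembrane semaphorin, was the gene most like OXTR, with a Pearson correlation of 0.94 and a Spearman correlation of 0.94 over 12 libraries. Its levels were 16.1, 37.4 and 21.6 CPM in the very low libraries, 8.70, 11.3 and 12.2 CPM in the low, 11.7, 9.69 and 8.59 CPM in the high and 7.21, 6.61 and 6.60 CPM in the very high libraries. It shared the high value of high replicate 1 within its class and kept a correlation of 0.90 without the 2 libraries farthest from the OXTR median, very low replicates 2 and 3, and of 0.69 in deviations from the class means. Its range was far narrower than that of OXTR, with a log2 difference of -1.87 between the very high and the very low class.

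The next were AHR, the aryl hydrocarbon receptor (0.90), the kinase MAP3K7 (0.90), the small GTPase NRAS (0.90), the transcription factor ATF1 (0.90), the growth factor TGFB2 (0.89), RBM28 (0.89), TSPAN17 (0.89), GPR137B (0.88) and TAX1BP3 (0.88). AHR had 20.3, 92.4 and 40.6 CPM in the very low libraries and 8.35 to 22.1 CPM in the other 9, so the classes overlapped at very low replicate 1. TGFB2 had 22.6 to 52.9 CPM in the very low libraries and 4.36 to 12.9 CPM in the other 9, without overlap. NRAS spanned a log2 difference of only -0.33 between the very high and the very low class, so a high correlation did not mean a like size of difference. In deviations from the class means NRAS had 0.85 and GPR137B 0.81, while TGFB2 had 0.38.

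The 5 genes most opposite to OXTR were KHK, the ketohexokinase that starts fructose breakdown (-0.94), the mevalonate pathway kinase PMVK (-0.92), the clock transcription factor NPAS2 (-0.92), the transfer RNA modifying enzyme TRMU (-0.90) and the tetraspanin TSPAN7 (-0.90). KHK had 49.7, 49.4 and 47.9 CPM in the very high libraries, against 20.0, 17.0 and 14.4 CPM in the very low libraries, with the low class at 21.0 to 39.1 CPM and the high class at 27.5 to 39.3 CPM between them. Its Spearman correlation with OXTR was -0.98. NPAS2 had 14.4 to 29.7 CPM in the 9 libraries of the upper 3 classes and 6.20 to 13.6 CPM in the very low libraries, the same division as OXTR in reverse. The membership of the most like genes was not firm, as SEMA6A was among the top 10 in 15 of 16 alternative settings but TAX1BP3 in 1.

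**Figure D5:**
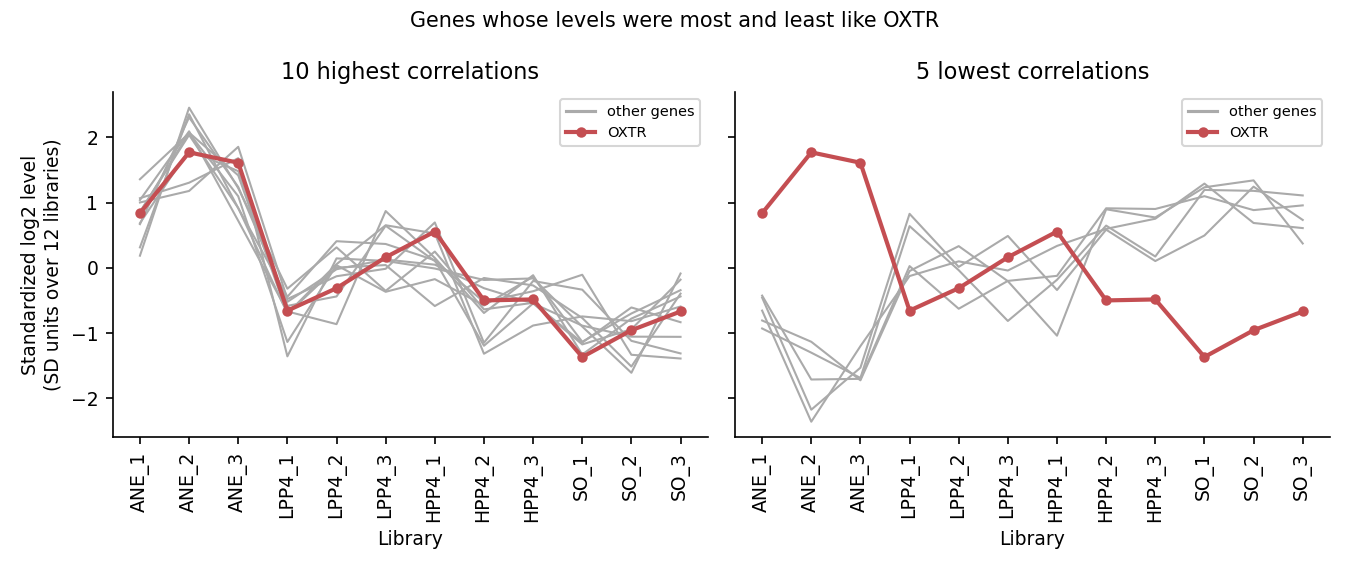
Log2 CPM standardized to each gene's own mean and SD over the 12 libraries (vertical axis), by library in class order, for OXTR in red and, in grey, the 10 genes with the highest (left) and the 5 with the lowest (right) Pearson correlation with it. The grey lines on the left lie above their own means in the 3 very low libraries together with OXTR, and those on the right lie below theirs. Some overlap other classes, as AHR with 20.3 CPM in very low replicate 1 against 22.1 in low replicate 2. PMVK had 9.54 CPM in very low replicate 1 against 8.99 in high replicate 1.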

How the data were processed

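RNA of 12 endometrial biopsies was sequenced after oligo-dT capture with a stranded kit, as paired reads from 1 pool, per the labels' protocols. Per the submitters' processing notes, the tools included Trimmomatic 0.32 and FastQC 0.11.2, with builds UMD3.1 and bosTau8. How reads were aligned and counted, and with which strand setting, is not given in the sources used here. The authors deposited raw counts per gene symbol, 1 column per sample, from 3772564 to 8379489 per library.

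Genes were filtered with filterByExpr (count minimum 10) and TMM-scaled, and a quasi-likelihood model of the 4 classes, or a slope on class rank, was fitted to all 12 libraries in edgeR 4.0.16 (R 4.3.3), with Benjamini-Hochberg adjustment over 10959 genes and a threshold of 0.05. The fit was checked on simulated counts. CPM are TMM-scaled; log2 CPM use a prior count of 2. Marker scores are means of log2 CPM. Each SE is the absolute log2 difference or slope divided by the square root of its quasi-likelihood F statistic. It is therefore not independent of the test, and for OXTR no p is read from it. ARS-UCD2.0 served for gene names and neighbours only.

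OXTR, its partner lists and the marker lists were chosen with earlier results of these data known. The text names OXTR, its neighbours, members of the lists past the threshold (at most 6 per list and comparison), 8 genes always named where measured (OXT, AVPR1A, LNPEP, GNAQ, PTGS2, AKR1B1, ESR1 and PGR), and the 10 highest and 5 lowest correlations with OXTR. PAM, PTGFR, PTGER3, AVPR1B, AVPR2, ESR2 and IRF2 were added after their values were seen. Alternatives were other scalings and filters, DESeq2 1.42.0, limma-voom (limma 3.58.1), a replicate block, thinning to the smallest library, marker scores as covariates and leaving out each library. No library repeated another: replicates compared by chi-square over genes gave 21.8 or more per degree of freedom in each of the 12 within-class pairs. Intervals cover counting error only.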

Additional observations from a re-analysis of the deposited data

How the results depend on the processing

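For OXTR, 18 alternatives were run, without DESeq2, limma-voom or the fit with both marker scores. Very high over very low ran from -5.37 to -4.20 and low over very low from -4.0 to -3.06. The slope over the classes ran from -1.61 to -1.33. OXTR was picked from these levels, and every very low library lay above all others. Leaving out 1 library therefore could not turn the sign of either difference from the very low class. High over low (0.47) was 1.498 when adjusted for the smooth muscle score, and leaving out 1 library at a time gave -0.60 to 1.03, negative only without high replicate 1. Very high over high ran from -2.37 to -0.91. The partner counts also changed with the settings. For very high against very low (2 called) DESeq2 called 7, and limma-voom, the replicate block and the fit adjusted for epithelial and smooth muscle scores (added once the data had been seen) called 0 each, with 0 to 7 when 1 library was left out. For the trend (6 called) DESeq2 called 15, limma-voom 2, the replicate block 0 and the adjusted fit 0, with 0 to 8 when 1 library was left out. For low against very low and for high against low (0 called each) DESeq2 called 3 in each, and 0 to 1 were called with 1 library left out. Over all genes, very high against very low called 167 in edgeR, 1510 in DESeq2, 1 in limma-voom and 0 with the replicate block, and the trend 820, 2008, 360 and 180. Same-numbered libraries of different classes had deviations that correlated between -0.30 and 0.29, and other-numbered ones between -0.39 and 0.37. With 3 libraries per class these values cannot show whether replicate numbers pair the libraries, so the block result is not read as a paired analysis. GNAQ, very high over very low, turned positive with limma-voom (0.064), the replicate block (0.11), and without very low replicate 2 (0.51) or very high replicate 1 (0.11), in a range of -0.58 to 0.51 with 1 library left out, and was -1.91 in the adjusted fit. PTGS2 turned positive with limma-voom (0.66) and without very low replicate 2 (1.67), in a range of -2.69 to 1.67 with 1 library left out. Of the 10 genes most like OXTR, 2 stayed with Spearman correlation, 1 with deviations from the class means, 3 with library totals in place of TMM, and 5 to 9 with 1 library left out. The cause of these changes was not tested. Depth limits OXT, CAV3 and the vasopressin receptors, which had too few reads for a test.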
